A study of Mus musculus with 8 samples.

Results

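Collagen chain genes were followed in LB-22, an immortalized embryonic kidney line of the mouse, after transfection with siRNA to Wt1 or with scrambled siRNA. The members are all probe sets of the Mouse 430_2 array whose only annotated symbol is that of a numbered collagen alpha chain. They came to 82 probe sets of 42 genes, among 45037 probe sets that are not array controls and 18193 named genes. Both groups, control_siRNA and Wt1_siRNA (Wt1 encodes a zinc-finger transcription factor needed for kidney development), held 4 arrays of total RNA. Cells of both groups had been expanded at 33 °C with interferon gamma, were transfected for 6 h with 25 pmol of siRNA in Lipofectamine, and were then kept at 37 °C without interferon until RNA was taken at 48 h. One line was used, and the labels do not say whether the replicates were separate cultures. The p-values therefore measure only the spread between these arrays, which may be technical.

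Collagens are trimers of alpha chains wound into a triple helix through repeats in which glycine recurs at a fixed spacing. Fibrillar types form the banded fibrils that give tissue its tensile strength, type IV forms the sheet-like network of basement membranes, and the fibril-associated types with interrupted helices (FACIT) decorate fibril surfaces. Beaded filament, transmembrane and anchoring types link cells to these structures. In the kidney, type IV chains build the glomerular and tubular basement membranes, and types I and III belong to the stroma.

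Collagen genes were more often lower than higher after Wt1 siRNA. Those that fell were fibrillar (Col1a1, Col3a1, Col5a2 and Col11a1), network (Col4a5 and Col8a1) and beaded (Col6a1 and Col6a2). The calls of Col6a1 and Col6a2 were weak, with overlapping groups, and both were lost with median centring of the arrays. Col5a1 and the anchoring fibril gene Col7a1 rose. The other type I chain, Col1a2, and the main type IV chains, Col4a1 and Col4a2, did not pass the test. Where a gene had several probe sets, the one of highest mean signal stood for it. Of the 42 genes, 15 were bright enough to be tested, and of these 8 fell, 2 rose and 5 did not pass at an adjusted p under 0.05 in limma. Among the called genes, Col8a1, Col11a1 and Col7a1 had 1 group under the lowest tested mean of 664 and entered through their higher group. All of them passed in the limma fit with no filter (adjusted p = 0.00271, 0.0240 and 0.00791). Over all 9096 tested genes 37.3% passed, with 18.5% lower and 18.8% higher. The median log2 difference (Wt1 siRNA minus control siRNA throughout) was -0.41 for the 15 tested collagen genes, against 0.02 for all tested genes. For all 42 collagen genes it was -0.18. That value includes dim genes, and no median over all named genes was taken to set beside it.

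**Figure D1:**
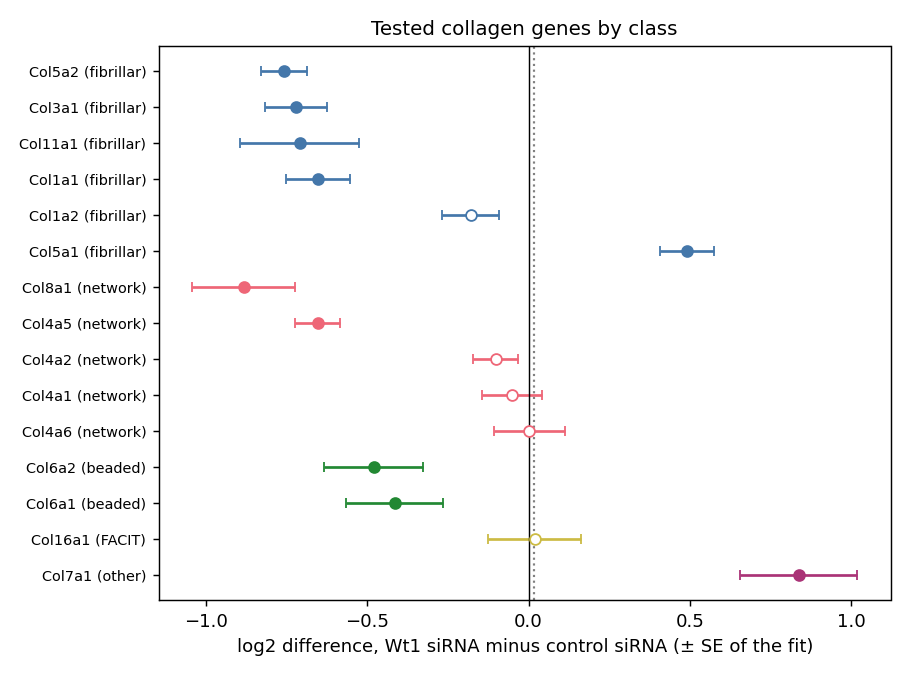
Log2 difference (Wt1 siRNA minus control siRNA) of the 15 tested collagen genes, grouped by class. Error bars are the SE of the limma fit, filled points passed at an adjusted p under 0.05, open points did not, and the dotted line is the median of all 9096 tested genes (0.02). Most filled points lie between -0.41 and -0.88, and Col5a1 and Col7a1 lie on the other side of 0.

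Wt1 itself checks the labels. Its signals were 8396.8, 7129.4, 8197.2 and 7423 on the control arrays and 1679.3, 1531, 1316.8 and 1913.9 on the Wt1 siRNA arrays. The Wt1 siRNA group thus retained 20.5% of the control signal, and the groups did not overlap (log2 -2.28 ± 0.11, the SE, as after every ± here; limma adjusted p = 5.91e-08).

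All values are MAS5 signals, a linear brightness per probe set, and the arrays had been brought to 1 trimmed mean of 1500, with the outer 2% on either side removed. The highest signal of 27 Bacillus subtilis control probe sets, which no mouse RNA should light, was 227.2 and is used here as the background level. Array medians ran from 279.1 to 346.1, not far above it, and a probe set's brightness also depends on its own probes. Signals are therefore compared between groups and not between genes. Of the 82 collagen probe sets, 32 lay above 227.2 on all 8 arrays and 27 on no array.

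The windows before the annotated start of several of these genes are shown first, because some chains of the same class had different calls. Among neighbouring genes, only Col4a5 and Col4a6 had different calls, and on the brighter Col4a6 probe set alone. Col4a1 and Col4a2, Col6a1 and Col6a2, and Col3a1 and Col5a2 had the same call within each pair. The windows are the 250 bases upstream of the start in RefSeq (GRCm38.p6), written 5′ to 3′ on the gene's strand. Capitals mark matches, on either strand, to any of 6 short motifs. The letters TATAAA are those of the TATA box, which works close to a start. The letters CCAAT are bound by the factor NF-Y. In a GC box, bound by Sp1, the letters searched were GGGCGG. Sites of the type shared by EGR1 and WT1 were searched in a first form, GCGGGGGCG, and a second form, GCGTGGGCG. The last motif was the repeat TCCTCCTCC, also studied as a binding sequence of WT1. Matches of different motifs may overlap. Col3a1 is shown as a fibrillar gene that fell, Col5a1 as one that rose, Col8a1 as the collagen gene whose window holds GCGGGGGCG, and Col4a5 and Col4a6 as neighbours on the X chromosome that read away from each other.
Col3a1, chr1:45311288-45311537, plus strand: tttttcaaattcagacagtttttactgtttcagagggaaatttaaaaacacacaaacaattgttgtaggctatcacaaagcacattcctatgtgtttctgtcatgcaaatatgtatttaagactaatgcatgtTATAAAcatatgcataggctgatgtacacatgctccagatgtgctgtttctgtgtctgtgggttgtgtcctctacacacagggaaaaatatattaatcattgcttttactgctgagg
Col5a1, chr2:27886175-27886424, plus strand: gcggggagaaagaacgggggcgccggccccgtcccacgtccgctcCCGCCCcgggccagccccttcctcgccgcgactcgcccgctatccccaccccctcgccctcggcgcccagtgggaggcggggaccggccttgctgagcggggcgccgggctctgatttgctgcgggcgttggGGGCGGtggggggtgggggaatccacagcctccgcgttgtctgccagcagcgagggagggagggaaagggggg
Col8a1, chr16:57754738-57754987, minus strand: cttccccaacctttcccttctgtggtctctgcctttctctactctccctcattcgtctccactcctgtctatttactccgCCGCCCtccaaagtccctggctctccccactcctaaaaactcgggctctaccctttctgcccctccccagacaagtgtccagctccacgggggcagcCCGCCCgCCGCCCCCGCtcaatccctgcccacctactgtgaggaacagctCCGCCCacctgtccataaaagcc
Col4a5, chrX:141475169-141475418, plus strand: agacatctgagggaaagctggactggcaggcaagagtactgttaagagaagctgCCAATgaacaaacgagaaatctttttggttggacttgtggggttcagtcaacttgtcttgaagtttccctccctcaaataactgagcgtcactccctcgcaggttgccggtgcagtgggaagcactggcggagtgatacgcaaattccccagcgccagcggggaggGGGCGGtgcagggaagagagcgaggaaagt
Col4a6, chrX:141474077-141474326, minus strand: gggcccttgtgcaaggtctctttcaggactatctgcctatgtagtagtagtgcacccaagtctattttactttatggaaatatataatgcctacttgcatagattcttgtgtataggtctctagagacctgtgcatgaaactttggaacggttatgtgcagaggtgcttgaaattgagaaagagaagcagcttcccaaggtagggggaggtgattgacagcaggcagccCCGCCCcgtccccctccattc

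The Col3a1 window had a GC content of 35.2% and held TATAAA but no GC box, whereas the Col5a1 window had a GC content of 76.4% and held GC boxes but no TATAAA. The TATAAA of Col3a1 lies near the middle of the window, away from the start. Col11a1, another fibrillar gene that fell, had a window of 62.4% GC with GC boxes and no TATAAA. The median over all windows was 52.4%. Windows were matched for 33 of the 42 genes, Col1a1 and Col5a2 not among them, and numbered 36, since some genes have several starts. A GC box was present in 21 of these 36 windows, against 32.7% of all 32851 windows of the same length, and TATAAA in 5 (12.4% of all). CCAAT was present in 13 (33.8% of all) and TCCTCCTCC in 3 (2.45% of all). GCGGGGGCG was present in 1, that of Col8a1 (2.57% of all), where it overlaps a GC box. The second form of that site was found in 0 (0.536% of all). Such matches describe letters in a window and do not show binding.

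Fibrillar collagens were the class with the most differences. Of 11 fibrillar genes 6 were tested, of which 4 fell, 1 rose and 1 did not pass, and their median log2 difference was -0.68. All 5 called genes had groups that did not overlap. Over the whole set of tested collagen genes 6 were lower and 2 higher without overlap, against 18.3% and 18.0% of all tested genes (36.3% in either direction). Each kept its call with median centring of arrays, with quantile normalization and without any 1 of the 8 arrays.

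Col3a1 encodes the single chain of type III collagen, which is laid down with type I in soft tissue. It had signals of 25386.1, 29698.3, 33702.2 and 25505.8 on the control arrays and 16950.2, 15833.6, 17420.4 and 18736.3 after Wt1 siRNA. Even the lowest control array lay well above the highest Wt1 siRNA array. The gene fell to 60.6% of control (log2 -0.72 ± 0.10; adjusted p = 7.78e-05).

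Col1a1 encodes the alpha 1 chain of type I collagen, present as a pair in each type I trimer. Its control arrays read 25426.8, 25983.5, 21284.7 and 23362.1, and its Wt1 siRNA arrays 16090.2, 13429.3, 13858.5 and 17911.4. The groups were apart, and the level fell to 63.6% of control (log2 -0.65 ± 0.10; adjusted p = 2.12e-04). Col1a2 encodes the other chain of that trimer. It read 3855.1, 3674.2, 3488.6 and 3720.8 in the control group and 3610.4, 2847.2, 3170.4 and 3435 after Wt1 siRNA. Those groups overlapped at one array, and the log2 difference of -0.18 did not pass (95% interval -0.37 to 0.01; adjusted p = 0.125). Another Col1a2 probe set had a difference of -0.43 and passed in the fit over probe sets (adjusted p = 0.0237), so the size for this gene depends on the probe set.

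Type V collagen sits inside type I fibrils, where it starts their assembly and limits their width, and its usual trimer holds a pair of Col5a1 chains with one Col5a2 chain. Col5a2 read 16640.9, 17403.2, 17870.4 and 16159.4 in the control group and 10100.4, 10235.9, 10807.1 and 9148.8 after Wt1 siRNA. It fell to 59.1% of control with no overlap (log2 -0.76 ± 0.07; adjusted p = 4.51e-06). Col5a1 moved the other way. Control signals were 5171.7, 4216.6, 4022.6 and 4587.1, and those after Wt1 siRNA were 6371.9, 6408.5, 6141.8 and 6272.7. It rose 1.41-fold (log2 0.49 ± 0.08; adjusted p = 4.99e-04), and the Wt1 siRNA arrays lay within a narrow band above every control array.

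Col11a1, whose chain forms type XI fibrils in cartilage and mixed type V and XI trimers elsewhere, was much dimmer. Its control arrays were at 985.5, 853.1, 925.9 and 805.6 and its Wt1 siRNA arrays at 545.5, 508, 408 and 777.2. The Wt1 siRNA array 4 came close to the lowest control array, but the groups did not overlap. Col11a1 fell to 61.2% of control (log2 -0.71 ± 0.18; adjusted p = 0.00834).

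**Figure D2:**
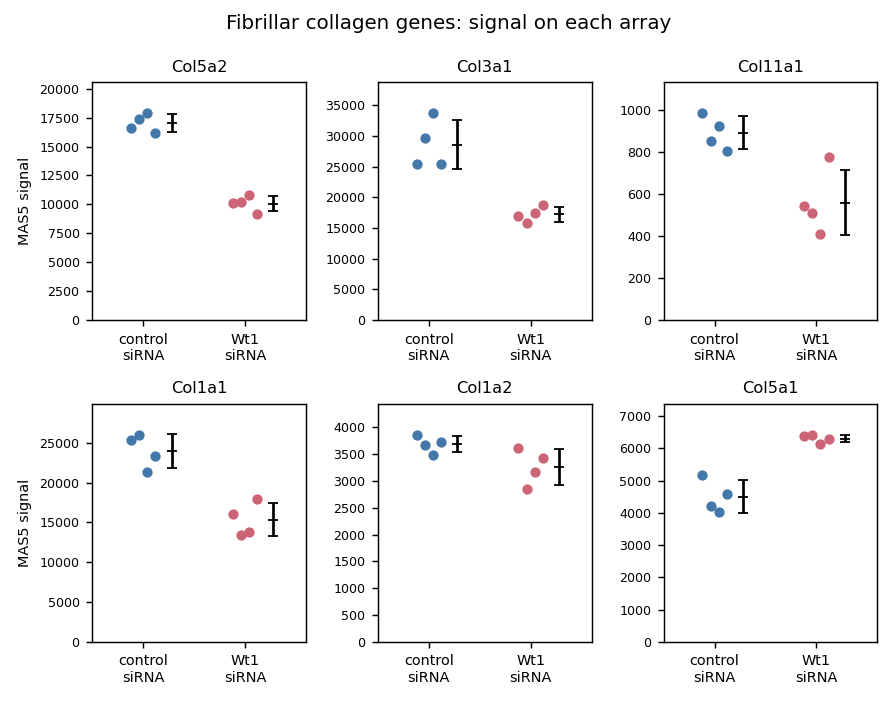
MAS5 signal on each array for the 6 tested fibrillar genes (y axes start at 0 and differ between panels). Points are single arrays, and the bars beside them are the mean and SD of 4 arrays. Col3a1, Col1a1, Col5a2 and Col11a1 are lower and Col5a1 is higher after Wt1 siRNA without overlap, while Col1a2 overlaps.

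The remaining fibrillar genes, Col27a1, Col5a3, Col11a2, Col2a1 and Col24a1, were left untested for low signal, with control means of 48.5 to 807. Col2a1 and Col24a1, the first of them the main chain of cartilage fibrils, were below the background level on all 8 arrays. Col27a1, with control signals of 817.7, 867.1, 725.8 and 819.3, had 1 Wt1 siRNA array far under the rest, at 141.6 against 807.9, 727 and 543.4. It lay just outside the filter, at a lower mean log2 signal than the tested Col8a1, Col11a1 and Col7a1. In those 3 tested genes the geometric mean of one group was itself under the lowest tested mean of 664, so they entered the test through their higher group.

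In the network-forming class Col4a5 and Col8a1 fell. Of 9 genes 5 were tested, of which 2 fell and 3 did not pass, a share near the 37.3% of all tested genes, with a median log2 difference of -0.10. Col4a1 and Col4a2, which make the type IV network common to nearly all basement membranes, gave no call. Col4a1 read 41219.5, 42790.8, 48432 and 42523.3 in the control group and 40935.6, 38435.4, 40275.3 and 49757.1 after Wt1 siRNA. Its difference was -0.05 (95% interval -0.25 to 0.15; adjusted p = 0.693). Col4a2 read 18335.9, 16314.3, 17460.6 and 16527.9 against 16400.9, 16020.6, 14907.6 and 16606.7, with a difference of -0.10 (-0.25 to 0.05; adjusted p = 0.261). Both intervals leave out a fall as large as that of Col4a5. After median centring of the arrays the Col4a1 and Col4a2 differences were 0.06 and 0.01. With quantile normalization Col4a1 had a difference of -0.24 and passed (adjusted p = 0.00273).

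Col4a5 encodes a chain of the mature glomerular basement membrane, and mutations in it cause Alport syndrome. Its control arrays were at 14160.7, 15838.3, 14225.7 and 14443.1 and its Wt1 siRNA arrays at 9167.8, 8765.4, 9366.9 and 9994.4. The gene fell to 63.6% of control with a wide gap between the groups (log2 -0.65 ± 0.07; adjusted p = 1.21e-05). Col4a6, its neighbour and partner chain, read 2188.4, 2318.9, 2117.3 and 2641.4 in the control group and 1968.9, 2316.5, 2327.3 and 2687.6 after Wt1 siRNA. On this probe set the groups overlapped fully, with a difference of 0.00 (-0.24 to 0.24; adjusted p = 0.991). The other Col4a6 probe set read 1480.7, 1385.6, 1644.6 and 1382.9 against 983.4, 1212, 1020.3 and 1163.5. That one did not overlap and was lower by a log2 difference of -0.43 (adjusted p = 0.0217 in the fit over probe sets), so the probe sets of Col4a6 differed in their call.

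Col8a1 encodes a short chain of the hexagonal network found in vessel walls and Descemet's membrane. It read 1422.1, 1155.3, 1020.1 and 839.5 on control arrays and 611.7, 600.4, 551.8 and 600.9 after Wt1 siRNA. The Wt1 siRNA arrays were tightly grouped beneath the widely spread control arrays, and the fall to 54.2% of control (log2 -0.88 ± 0.16; adjusted p = 8.24e-04) was the lowest difference among the tested collagen genes. Another Col8a1 probe set gave -0.84.

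Of the untested network genes, Col4a3, Col4a4, Col8a2 and Col10a1, only Col4a3 had groups that did not overlap. Its chain joins those of Col4a4 and Col4a5 in the mature glomerular basement membrane. It read 535.5, 556.1, 381.1 and 457.2 in the control group and 260.1, 188.1, 165.1 and 68.9 after Wt1 siRNA. With 3 of the 4 Wt1 siRNA arrays under the background level, the size of this difference is not measured. In the fit with no filter on signal, Col4a3 passed (adjusted p = 0.0104). A further Col4a3 probe set was under background on all arrays and differed by -0.07. Col10a1, a marker of hypertrophic cartilage, was also below background on every array.

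**Figure D3:**
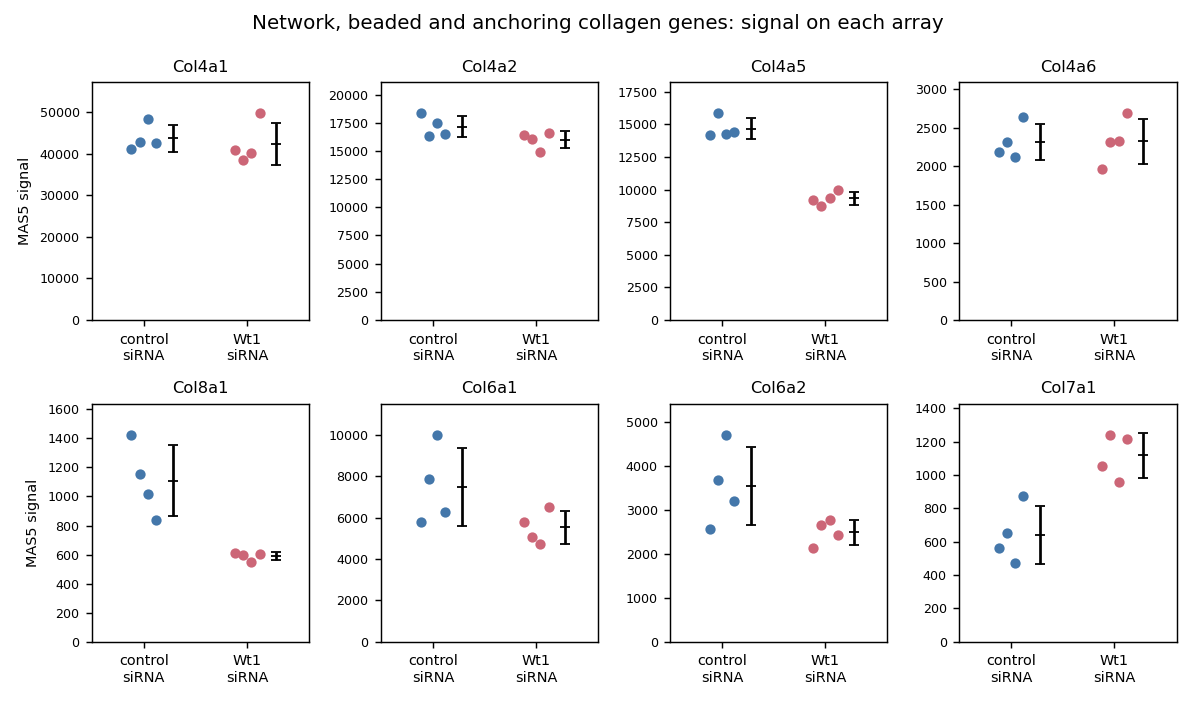
MAS5 signal on each array for the tested network genes (Col4a1, Col4a2, Col4a5, Col4a6, Col8a1), beaded genes (Col6a1, Col6a2) and the anchoring fibril gene Col7a1. Points are arrays, bars are the mean and SD of 4 arrays, and y axes start at 0. Col4a5 and Col8a1 are lower and Col7a1 is higher without overlap; the other genes overlap.

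Beaded filament collagen, type VI, surrounds cells as a microfibril mesh, and its classical trimer holds the Col6a1, Col6a2 and Col6a3 chains. Of 6 beaded genes 2 were tested and both fell, though weakly. Col6a1 read 5789.6, 7864.8, 9992.4 and 6286.8 against 5804.1, 5063.3, 4732.8 and 6518.4. Its groups overlapped, since control arrays 1 and 4 lay inside the Wt1 siRNA range, and the difference was -0.41 ± 0.15 (adjusted p = 0.0439). Col6a2 read 2570.1, 3686.9, 4696.5 and 3205.5 against 2120.8, 2650.4, 2773.9 and 2415.9, with a difference of -0.48 ± 0.15 (adjusted p = 0.0249). Control array 3 was the highest of the 8 for both genes. In the fit over probe sets the same ones did not pass (adjusted p = 0.0839 and 0.0515), while another Col6a2 probe set was lower by a log2 difference of -0.57 on overlapping arrays and passed (adjusted p = 0.0206). Without control array 3 the differences were -0.26 (adjusted p = 0.115) for Col6a1 and -0.33 (adjusted p = 0.0652) for Col6a2. Both calls were also lost without control array 2 (adjusted p = 0.101 and 0.0621) or Wt1 siRNA array 1 (0.0613 and 0.0750) and with median centring (0.177 and 0.112), and that of Col6a1 without Wt1 siRNA array 2 (0.103) or 3 (0.115), with no filter (0.0854), with no intensity trend (0.0724) and with the mean over probe sets (0.0764). The third chain, Col6a3, was left untested at a control mean of 395 and a difference of -0.39. Col6a4 exceeded background on 1 array, and Col6a5 and Col26a1 on none.

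FACIT genes were mostly dim. Of 9 such genes only Col16a1 was tested, whose chain is found near basement membranes and on fibrils. It read 2237.5, 1784.5, 1915.1 and 2145.3 in the control group and 2057.9, 2782.5, 1706.1 and 1766.8 after Wt1 siRNA. The groups overlapped and the difference was 0.02 (95% interval -0.29 to 0.33; adjusted p = 0.938). Col12a1 and Col9a1 were above background on all arrays but under the filter, and had differences of -0.05 and -0.19. Col14a1, at a control mean of 384, had a difference of -0.15. Col20a1 had groups that did not overlap, with control signals of 222.6 to 281.2 and Wt1 siRNA signals of 24.6 to 207.5. The Wt1 siRNA signals were all under background, and Col20a1 did not pass without the filter (adjusted p = 0.0857). The cartilage genes Col9a2 and Col9a3 were below background on every array, and Col19a1 and Col22a1 exceeded it on 1 and 5 arrays.

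Col7a1, whose homotrimers form the anchoring fibrils that tie epithelial basement membranes to the stroma, rose. Its control arrays read 561.3, 649.4, 469.7 and 874.8 and its Wt1 siRNA arrays 1054.9, 1239.2, 960.6 and 1214.7. Every Wt1 siRNA array lay above every control array, and the level was 1.79-fold that of control (log2 0.84 ± 0.18; adjusted p = 0.00275). The multiplexin gene Col18a1, source of the endostatin fragment, was left untested for low signal, at 390, 290.8, 411.4 and 238.3 against 667.1, 682.7, 472.9 and 554. Those arrays did not overlap either, and Col18a1 passed in the fit over probe sets (log2 0.86 ± 0.23; adjusted p = 0.0181) and in the gene fit with no filter (adjusted p = 0.0260). A further Col18a1 probe set was at 0.55 and did not pass (adjusted p = 0.176). The other multiplexin gene, Col15a1, had a difference of -0.86 on overlapping arrays and did not pass without the filter (adjusted p = 0.159). None of the 4 transmembrane genes, Col13a1, Col17a1, Col23a1 and Col25a1, was tested. Their control means ran from 6.33 to 255, and Col13a1 and Col17a1 never exceeded background. Col25a1, the brightest of them in the control group, read 324.4, 286.8, 328.4 and 80.4 against 259.5, 301.8, 79.8 and 447.8, which overlapped.

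**Figure D4:**
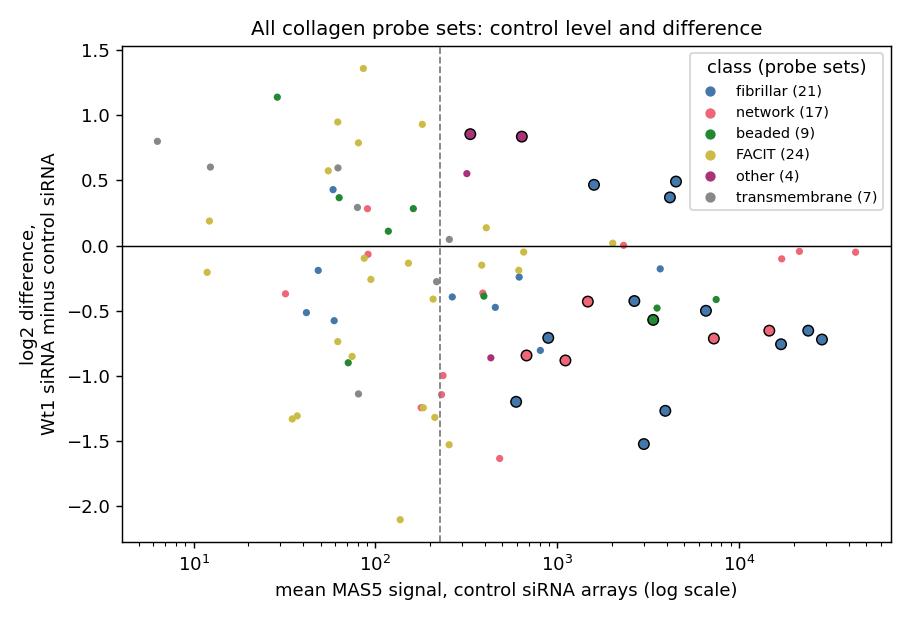
Control level (mean MAS5 signal of 4 control arrays, log scale) against log2 difference (Wt1 siRNA minus control siRNA) for all 82 collagen probe sets, coloured by class. Larger outlined points passed in the fit over probe sets and the dashed line marks the background level of 227.2. The outlined points are fibrillar, network, beaded and other genes, and the points left of the line scatter to both sides of 0.

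The fit over probe sets, which tests each one by itself, again had more lower than higher calls. Of 39 tested collagen probe sets 15 were lower, 5 higher and 19 did not pass, while 23.1% of all 22518 tested probe sets passed (12.3% lower and 10.8% higher). By class, the tested probe sets were 16 fibrillar (9 lower, 3 higher), 10 network (5 lower, 0 higher), 4 beaded (1 lower, 0 higher), 5 FACIT (0 lower, 0 higher; 0 at an unadjusted p under 0.05) and 4 of the other types (0 lower, 2 higher). Probe sets of 1 gene share its transcripts and are no replicates of each other. Of 14 genes with several tested probe sets, 10 had the same call on each, and Col1a2, Col4a6, Col6a2 and Col18a1 did not.

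Even where the calls were the same, sizes differed. Col5a2 had a second probe set at 3218.7, 2773, 3342.5 and 2647.4 in the control group and 929.1, 952.5, 1310.2 and 993.4 after Wt1 siRNA, a difference of -1.52 against -0.76 on the brighter one. The second probe set of Col3a1 read 3515.4, 4003.3, 4828.2 and 3374.4 against 1619.1, 1353.3, 1879.5 and 1648.3, a difference of -1.27 against -0.72. Col11a1 gave -1.20 against -0.71. Falls of Col1a1 (-0.50 and -0.65) and Col4a5 (-0.71 and -0.65) were closer, and the 3 probe sets of Col5a1 ranged from 0.37 to 0.49.

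Chains of the same collagen type were then set against each other on each array, which removes any scaling of the whole array. The 5 pairs were chosen after the values had been seen, as chains of the same collagen type that share a trimer or a locus and were both tested. Several pairs join genes whose calls differ, so the ratios are given as descriptions, with no test. For Col5a1 against Col5a2 the log2 ratio was 1.25 higher after Wt1 siRNA. The 4 Wt1 siRNA arrays lay between 1.11 and 1.38 above the control mean, and the control arrays within -0.23 and 0.24 of it. All 6 pairings of tested Col5a1 and Col5a2 probe sets were without overlap, with changes from 1.13 to 2.02.

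The Col4a5 to Col4a6 ratio differed by -0.66, with no overlap. Between their other probe sets the change was as small as -0.22, and 2 of 4 pairings did not overlap. The Col1a1 to Col1a2 ratio differed by -0.47 with no overlap, and by -0.18 with the probe sets of each gene averaged. Over the pairings of their tested probe sets -0.47 was the largest change and -0.07 the smallest, and 2 of 4 did not overlap. For Col4a1 against Col4a2 the change was 0.05 and for Col6a1 against Col6a2 it was 0.07, and their groups overlapped. In the RefSeq annotation Col4a1 and Col4a2, Col4a5 and Col4a6, and Col6a1 and Col6a2 are direct neighbours among protein-coding genes, as are Col3a1 and Col5a2, which both fell.

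**Figure D5:**
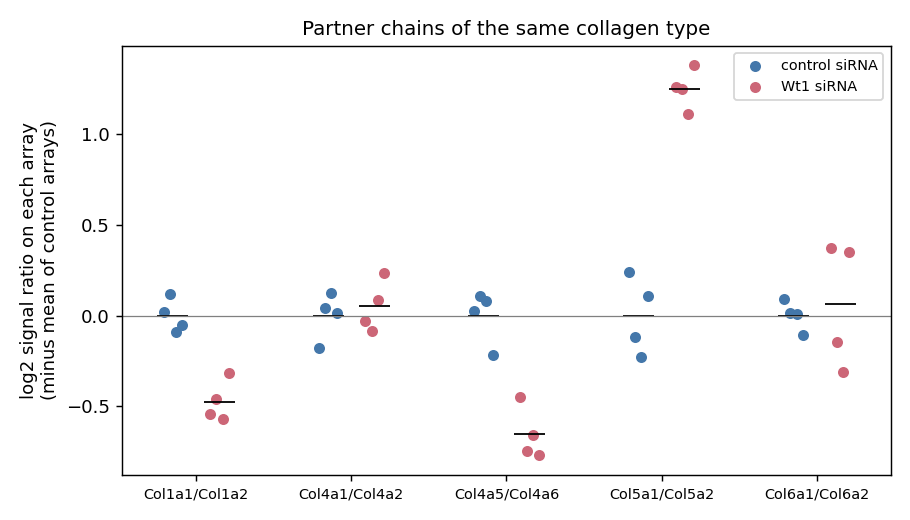
Log2 ratio of the signals of 2 chains of the same collagen type on each array, minus the mean of the control arrays, for 5 pairs. Points are single arrays and short lines are group means. The group means differ by 1.25 for Col5a1 to Col5a2, by -0.66 for Col4a5 to Col4a6 and by -0.47 for Col1a1 to Col1a2, while the groups overlap for Col4a1 to Col4a2 and Col6a1 to Col6a2.

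Other genes of collagen synthesis and its surroundings were read from lists, whose counts stand beside the 37.3% of all tested genes that passed (18.8% higher and 18.5% lower). Of 17 tested genes that fold and modify procollagen in the endoplasmic reticulum 6 rose, 2 fell and 9 did not pass, with a median log2 difference of 0.18, against 0.02 for all tested genes. Colgalt1, which attaches galactose to hydroxylysine, was at 5210 to 6517 in the control group and 8800 to 9836 after Wt1 siRNA, and rose 1.57-fold (log2 0.65 ± 0.08; adjusted p = 4.20e-05). The lysyl hydroxylase genes Plod1 (0.50 ± 0.10) and Plod2 (0.45 ± 0.07) also rose without overlap. Averaged over probe sets, Plod1 was at 0.18 and did not pass (adjusted p = 0.698). P4ha2 rose by 0.38 ± 0.08 without overlap (limma adjusted p = 0.00290). Its call was kept with median centring, with quantile normalization, with the mean over probe sets and without any 1 array. P4hb, the disulfide isomerase subunit of prolyl 4-hydroxylase, rose by 0.32 ± 0.11 (adjusted p = 0.0350), a call lost without any 1 of control arrays 1, 2 and 4 or Wt1 siRNA array 4. Crtap, a partner of prolyl 3-hydroxylase, rose by 0.21 ± 0.07 (adjusted p = 0.0405), lost without any 1 of control arrays 2 and 4 or the 4 Wt1 siRNA arrays and with median centring (adjusted p = 0.103). Both also missed the threshold with no filter (adjusted p = 0.0783 for P4hb and 0.0700 for Crtap), with no intensity trend (0.0539 and 0.0695) and with the mean over probe sets (0.0516 and 0.0509). Fkbp14, a prolyl isomerase gene, fell (-0.32 ± 0.10; adjusted p = 0.0247), but not without any 1 of control arrays 1 and 3 or Wt1 siRNA arrays 2 and 3, with median centring or with the mean over probe sets. The prolyl 3-hydroxylase gene P3h2 fell (-0.49 ± 0.13; adjusted p = 0.00842). With arrays centred on their medians 5 of the list were higher and 0 lower by limma, and P3h2 then did not pass (adjusted p = 0.0868).

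Crosslinking enzymes, which oxidize lysines so that fibrils can be joined covalently, differed by gene. Of 4 tested genes 2 fell, 1 rose and 1 did not pass. Lox, the lysyl oxidase gene, was at 13286 to 16122 on control arrays and at 6831 to 7736 after Wt1 siRNA, so the groups were far apart. It fell to 50.7% of control (log2 -0.98 ± 0.08; adjusted p = 9.01e-07). Loxl1 fell to 57.0% (-0.81 ± 0.08). Loxl4 rose by 0.45 ± 0.17 on overlapping arrays (adjusted p = 0.0471), a call lost without any 1 of control arrays 2 to 4 or of Wt1 siRNA arrays 1 and 4, with no filter (0.105) and with the mean over probe sets (0.176). Its control mean of 640 lay under the lowest tested mean of 664, so Loxl4 entered the test through its Wt1 siRNA group.

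Of 6 tested genes for procollagen export and trimming 1 rose, 1 fell and 4 did not pass, a share near that of all tested genes (37.3%). Bmp1, whose protease cuts the C-propeptides of fibrillar procollagens, rose by 0.46 ± 0.12 (adjusted p = 0.00850), but averaging its probe sets gave 0.18 without passing (adjusted p = 0.518). Klhl12, an adaptor for ubiquitination of the COPII coat that carries procollagen, fell (-0.49 ± 0.09), but with median centring no longer passed (adjusted p = 0.0522). Of 4 tested collagen receptor genes, among them Ddr1, Ddr2 and Itgb1, 0 passed by limma (1, Itgb1, at an unadjusted p under 0.05), with differences of -0.07 to 0.21. Among collagen-cutting proteases 2 were tested. The gelatinase gene Mmp2 fell (-0.39 ± 0.07), though not with median centring (adjusted p = 0.147), and the membrane collagenase gene Mmp14 rose (0.41 ± 0.08).

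Among proteins that bind collagen fibrils and basement membranes, the share of calls was also near that of all tested genes (37.3%). Of 6 tested fibril-associated genes 2 fell and 4 did not pass. Dcn, whose proteoglycan coats fibrils, fell by 1.36 ± 0.23 on the log2 scale and Thbs1, a secreted thrombospondin, by 1.08 ± 0.10. Of 9 tested partners of type IV collagen in basement membranes 3 rose, 1 fell and 5 did not pass. The nidogens, which link laminin to type IV collagen, went opposite ways. Nid1 was at 13568 to 15979 in the control group and 22507 to 26828 after Wt1 siRNA, and rose 1.65-fold (0.73 ± 0.08), while Nid2 was at 1232 to 1485 and then 438 to 628, and fell to 40.3% of control (-1.31 ± 0.15). The Nid2 signals after Wt1 siRNA lay under the lowest tested mean of 664, so Nid2 entered the test through its control group. Nid2 also passed in the limma fit with no filter (adjusted p = 7.08e-05). The proteoglycan genes Agrn and Hspg2 rose by 0.47 ± 0.08 and 0.54 ± 0.20. Hspg2 was at 5077 to 5825 in the control group and 6173 to 14069 after Wt1 siRNA. Its call (adjusted p = 0.0453) was lost with quantile normalization (adjusted p = 0.0599), with no filter (0.0899), with no intensity trend (0.0749) and without Wt1 siRNA array 1 or any 1 control array.

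Markers of cell types were read beside these values. In bulk RNA, fewer cells of a type and less RNA per cell cannot be told apart. Of 10 fibroblast and mesenchymal markers 7 were above background on all 8 arrays, with summed signals of 108331 to 131129 in the control group and 117786 to 150926 after Wt1 siRNA. Vim made up much of that sum (control mean 65379, log2 difference 0.26, not past). All 7 were tested, with a median log2 difference of 0.20. Of them 2 fell, 0 rose and 5 did not pass, against 18.5% lower and 18.8% higher over all tested genes. Cdh11, a mesenchymal cadherin, fell (-0.87 ± 0.08, limma adjusted p = 2.68e-06), as did Acta2, smooth muscle actin (-0.43 ± 0.08, limma adjusted p = 8.82e-04, but 0.0923 with median centring). Besides Vim, those not past were Twist1 (0.27), Zeb1 (0.26), Snai2 (0.20) and S100a4 (-0.06).

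Of 10 epithelial markers 6 were above background on all arrays, with sums of 22924 to 24909 and 20750 to 21869, which did not overlap. Epcam fell to 23.3% of control (-2.10 ± 0.33; adjusted p = 2.70e-04), Krt18 fell (-0.19 ± 0.06; adjusted p = 0.0243, lost with median centring and without Wt1 siRNA array 2 or 3) and Krt8 rose (0.55 ± 0.15; adjusted p = 0.00949). Epcam read 1227 to 4069 in the control group, a wide spread, and 274 to 647 after Wt1 siRNA. The latter lay under the lowest tested mean of 664, so Epcam entered the test through its control group. It also passed in the limma fit with no filter (adjusted p = 8.70e-04). Without _s_at and _x_at probe sets, and with the mean over probe sets, Epcam was not tested. Cdh1, left untested for low signal, was higher without overlap (332 to 504 in the control group, 708 to 920 after Wt1 siRNA). Of 8 kidney mesenchyme markers measured, 4 were above background on all arrays, among them Six2 and Eya1 at control means of 358 and 320 and Osr1, which rose (0.75 ± 0.18; adjusted p = 0.00502). Their sums were 9137 to 10482 and 3924 to 4635. The list holds Wt1 itself, at means of 7787 and 1610, so these sums mostly follow the siRNA target and do not describe the other members.

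Sums of 8 leukocyte markers were close, at 3978 to 4308 and 3980 to 4434, but Cd68 rose (0.99 ± 0.10; adjusted p = 8.66e-06) and Csf1r fell (-0.76 ± 0.15; adjusted p = 0.00125, and 0.198 with the mean over probe sets). Ptprc, the pan-leukocyte marker, was below background on average (81.2 in the control group). For 8 endothelial markers the sums were 2117 to 2967 and 1763 to 2112, only just without overlap. Kdr made up most of these sums, at means of 1995 and 1452, so they do not describe the other members. The endothelial receptor gene Kdr fell (-0.45 ± 0.11; adjusted p = 0.00539, but 0.0894 with median centring), while Pecam1 was at 78.3 and Cdh5 at 141 in the control group, below background. None of 6 chondrocyte markers (sums of 759.9 to 948.7 and 632.9 to 1284) and 1 of 6 muscle markers (1302 to 1729 and 1317 to 1669) was above background on all arrays. The part of these shifts in the collagen differences was not tested.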

How the data were processed

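Total RNA was measured on 8 Mouse 430_2 arrays. The authors deposited 1 linear intensity for each probe set and array, which the submitters' processing notes credit to MAS5 (version not given in the sources used here). These intensities were taken to log2 without another normalization. Probe sets were named from the platform annotation, with symbols updated by Entrez ID, which changed 0 of the collagen symbols. Each gene was represented by its probe set of highest mean log2 signal, and the brighter share of 0.5 of the 18193 genes was tested with limma 3.58.1 in R 4.3.3 (lmFit, eBayes with intensity trend), two-sided, with Benjamini-Hochberg adjustment over 9096 genes. A second fit took all probe sets that are not array controls, filtered the same way. The fit gave the SE and the 95% intervals. Percent of control is the ratio of geometric means.

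Named genes are every collagen gene, and up to 4 called members of each other list with the largest absolute difference. P4ha2, P4hb, Crtap, Fkbp14, the receptors and uncalled markers were added after their values were seen. The members and lists were chosen with earlier results of these data known. The fit was tested on simulated data. The number of arrays limits the precision. Alternatives were the replicate block, quantile normalization, median centring, an added 16 or 64, no filter or a stricter one (a share of 0.25), no intensity trend, the mean over probe sets, no _s_at or _x_at probe sets, a threshold of 0.01 and each array left out. Python 3.11.15 with matplotlib 3.10.9 made the figures.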

Additional observations from a re-analysis of the deposited data

Results flagged for a closer look

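Of 32 groups of 4 arrays checked (15 tested collagen genes and Wt1, in both siRNA groups), 1 had an array far from the others. In Col4a5, control array 2 read 15838.3 against 14160.7 to 14443.1 on the other control arrays, a gap of 0.832 of the group's range. Chance flags about 1 in 20 such groups. Without control array 2 Col4a5 kept its call.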

How the results depend on the processing

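Of the tested collagen genes, Col3a1, Col1a1, Col5a2, Col11a1, Col4a5, Col8a1, Col5a1 and Col7a1 kept their call under every alternative that tested them. Median centring moved the median difference of all tested genes by 0.11 and left 2 collagen genes higher and 6 lower; it put Col4a1 at 0.057 and Col4a2 at 0.0062. Quantile normalization gave 2 higher and 9 lower and a Col4a1 to Col4a2 ratio change of -0.058. Restricted to the brightest share of 0.25, 9 collagen genes were tested, with 1 higher and 5 lower, and 3 collagen probe sets were higher; at an adjusted p under 0.01, 3 probe sets were also higher. The mean over probe sets gave -0.21 for Col4a6 and -0.18 for the Col1a1 to Col1a2 ratio. With 1 array left out, 6 to 8 collagen genes were lower and 2 higher, and 3 to 5 probe sets were higher and 11 to 17 lower. Those fits gave -0.13 to 0.10 for Col16a1, -0.071 to 0.079 for Col4a6, -0.010 to 0.097 for the Col4a1 to Col4a2 ratio and -0.036 to 0.19 for the Col6a1 to Col6a2 ratio. The cause of these shifts was not tested. Deviations of arrays of the same replicate number were at most weakly correlated (-0.077 to 0.084), so the numbers were not taken as pairs. For control arrays 1, 3 and 4, though, the best-correlated Wt1 siRNA array was that of the same number. With the replicate as a block 2 collagen genes were higher and 7 lower. Col6a1 lost its call (limma adjusted p = 0.0557) and Col6a2 kept its own (0.00310). The median SD of log2 signal within groups was 0.142 over tested and 0.667 over untested genes, so that differences of the dim genes are poorly measured.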
